A study of Homo sapiens with 9 samples.

Results

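The receptors of the TGF-beta and BMP family were described in MDA-MB-231 cells in which the aryl hydrocarbon receptor gene AHR was knocked down. The set held 10 genes of the 60649 in the count table: the type I receptors ACVRL1, ACVR1, ACVR1B, BMPR1A and TGFBR1, the type II receptors ACVR2A, ACVR2B, BMPR2 and TGFBR2, and the co-receptor ENG. Its members were taken from the table by gene symbol, and the set was chosen because of the measured counts of ACVRL1, which had no reads in the control and clear expression with both knockdown constructs. The difference of ACVRL1 from the control is therefore given as a description with no test, and the 9 other genes entered as its relatives. All 10 genes passed the filter on low counts, and ACVRL1 passed it only through the knockdown libraries.

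The cells, MDA-MB-231, are a widely used human line derived from triple-negative breast cancer and are labelled as mammary epithelial. The study compared 3 groups with 3 RNA-seq libraries each, made from polyadenylated RNA of cells labelled as proliferating. The control group, pLKO-GFP, carried a lentiviral vector with no hairpin against AHR, and the groups shAHR#2 and shAHR#3 each carried a different short hairpin RNA against AHR in the same kind of vector. Cells of all groups were infected with lentivirus and selected as a pool, so none is a single clone, and every difference from the control shares the same 3 pLKO-GFP libraries. The methods number the AHR hairpins #1 and #2, and how those numbers map to the labels #2 and #3 is not given in the sources used here.

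The library totals were 17407688 to 19509030 reads assigned to genes in pLKO-GFP, 15991396 to 19112459 in shAHR#2 and 19436825 to 20374460 in shAHR#3. AHR itself, the targeted gene, stood at 118 ± 3.33 CPM (counts per 1e6 reads, on library sizes corrected by the trimmed mean of M-values) in pLKO-GFP, 41.6 ± 1.07 in shAHR#2 and 47.7 ± 3.99 in shAHR#3 (SD, n = 3), which checked the labels. Tests between groups used the quasi-likelihood method of edgeR over 14274 genes, with Benjamini-Hochberg adjustment, and a gene was called at an adjusted p below 0.05. Calls were frequent: 65.8% of all tested genes differed between shAHR#2 and pLKO-GFP (32.6% higher, 33.2% lower), 54.4% between shAHR#3 and pLKO-GFP (26.9% higher, 27.5% lower) and 42.3% between shAHR#3 and shAHR#2 (21.9% higher, 20.4% lower). Nothing in the labels says that replicates came from separate cultures, so the p-values measure the spread between these libraries, which may be technical.

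TGF-beta, activin and BMP ligands signal through complexes of type I and type II receptors, which are transmembrane serine/threonine kinases. The type II receptor phosphorylates the type I receptor, which then phosphorylates SMAD proteins: TGFBR1 and ACVR1B act mainly on SMAD2 and SMAD3, while ACVRL1, ACVR1 and BMPR1A act mainly on SMAD1, SMAD5 and SMAD9. Phosphorylated SMADs join SMAD4 and enter the nucleus, where they regulate target genes, and in breast epithelium the TGF-beta branch is known both for growth arrest and for epithelial-mesenchymal transition.

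ACVRL1, also called ALK1, is a type I receptor best known from endothelial cells, where it binds BMP9 (the product of GDF2) and BMP10. The gene lies on the forward strand of chromosome 12 (chr12:51906908-51923361, GRCh38). No read was counted in any of the 3 pLKO-GFP libraries. The shAHR#2 libraries had 79, 76 and 72 reads, or 4.24, 4.88 and 4.56 CPM. The shAHR#3 libraries had 53, 54 and 55 reads, or 2.73, 2.76 and 2.69 CPM. The 3 groups did not overlap. Against a floor of 3 counts in each control library, ACVRL1 was at least 29.0-fold higher in shAHR#2 and at least 17.4-fold higher in shAHR#3. These bounds allow for counting error in the control libraries only, not for error in the knockdown counts or the spread between libraries. In bulk RNA, a change in the number of cells that express a gene and a change in RNA per cell cannot be told apart.

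The difference of ACVRL1 between the constructs played no part in its choice. ACVRL1 was lower in shAHR#3 than in shAHR#2, with a log2 fold change of -0.74 ± 0.19 (SE; edgeR adjusted p = 0.0014), and every shAHR#3 library was below every shAHR#2 library. Its log2 fold change lay between -0.80 and -0.70 over all alternative settings tried. Even so, ACVRL1 remained a low transcript: per length, it stood at 0.819 ± 0.0578 RPKM (CPM per kilobase of exon) in shAHR#2 and 0.490 ± 0.00701 in shAHR#3 (SD, n = 3).

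**Figure D1:**
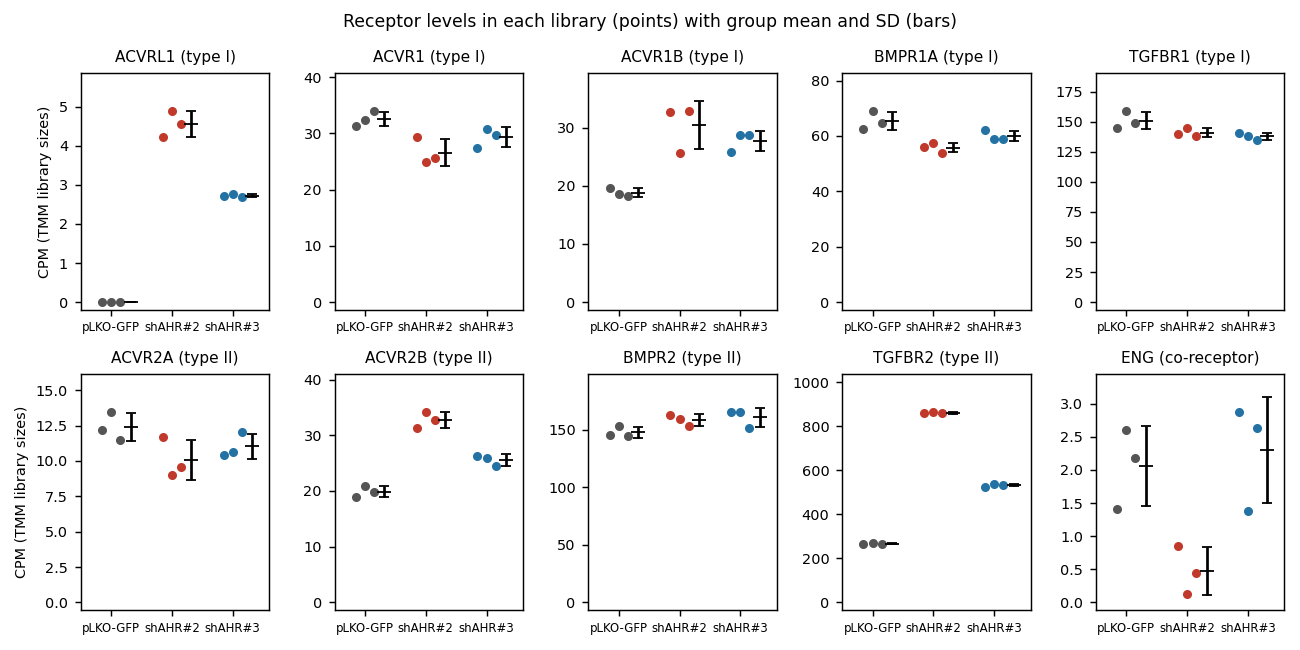
Level of each receptor gene in CPM (vertical axes, linear and starting at 0, a different scale in each panel) in the 3 pLKO-GFP, 3 shAHR#2 and 3 shAHR#3 libraries; points are libraries, and bars give the group mean ± SD. ACVRL1 rises from 0 reads in all control libraries, TGFBR2 shows 3 well separated groups, and ENG is lowest in shAHR#2.

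ENG (endoglin) is a co-receptor that presents BMP9 and TGF-beta to receptor complexes and is, like ACVRL1, best known from endothelium. Its gene lies on the reverse strand (chr9:127815013-127854658). The pLKO-GFP libraries had 25, 52 and 43 reads of ENG, the shAHR#2 libraries 16, 2 and 7, and the shAHR#3 libraries 56, 27 and 54. All shAHR#2 libraries were below all others, while shAHR#3 overlapped the control. In CPM, ENG stood at 2.06 ± 0.601 in pLKO-GFP, 0.476 ± 0.366 in shAHR#2 and 2.30 ± 0.804 in shAHR#3 (SD, n = 3).

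ENG fell with shAHR#2 by 2.05 on the log2 scale (SE 0.38; edgeR adjusted p = 1.48e-05). With shAHR#3 its log2 fold change from the control was 0.15 ± 0.27, which did not pass the test (edgeR adjusted p = 0.679). The direct difference did: ENG was higher in shAHR#3 than in shAHR#2 by 2.20 ± 0.38 on the log2 scale (edgeR adjusted p = 7.75e-06). So ACVRL1 was higher, and its co-receptor lower, in shAHR#2 than in shAHR#3. At counts as low as 2 to 56 reads the size of the ENG change was loose, and over the alternatives its fall in shAHR#2 ranged from -2.82 to -1.63. A long noncoding RNA annotated on the opposite strand of ENG had at most 27 reads in any library, and since the strand setting of the counting is not given in the sources used here, the sharing of reads between them was not tested.

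BMPR2 is a type II receptor that pairs with ACVRL1 for BMP9 and BMP10. It lies on the forward strand (chr2:202376327-202567751). Its CPM were 146, 153 and 145 in pLKO-GFP, 163, 160 and 153 in shAHR#2, and 165, 166 and 151 in shAHR#3. The control and knockdown libraries met near 153 CPM, and the lowest shAHR#3 library fell within the control range. Its log2 fold changes were 0.10 ± 0.04 with shAHR#2 (edgeR adjusted p = 0.0141) and 0.12 ± 0.04 with shAHR#3 (edgeR adjusted p = 0.00399). The call for shAHR#2 was lost when pLKO-GFP replicate 1, pLKO-GFP replicate 3 or shAHR#2 replicate 1 was left out, at log2 fold changes of 0.09, 0.09 and 0.08.

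TGFBR2, the type II receptor that binds TGF-beta directly and recruits TGFBR1, had the largest read counts of the set and rose with both constructs. Its gene lies on the forward strand (chr3:30606601-30694142). The pLKO-GFP libraries had 4736, 5437 and 5206 reads, or 267, 272 and 264 CPM. The shAHR#2 libraries had 16006, 13491 and 13614 reads, or 858, 866 and 861 CPM. The shAHR#3 libraries had 10225, 10506 and 10953 reads, or 526, 538 and 535 CPM. The 3 groups were far apart, with shAHR#3 between the control and shAHR#2.

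The rise of TGFBR2 was 3.22-fold with shAHR#2, a log2 fold change of 1.69 ± 0.03 (edgeR adjusted p = 4.36e-36). With shAHR#3 it was 1.99-fold, a log2 fold change of 0.99 ± 0.03 (edgeR adjusted p = 2.85e-28). The level in shAHR#3 was lower than in shAHR#2 by a log2 fold change of -0.69 ± 0.02 (edgeR adjusted p = 1.23e-23), so TGFBR2 was ordered over the groups as ACVRL1 was.

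The activin type II receptors differed from each other. ACVR2B binds activins, myostatin and GDF11, and lies on the forward strand (chr3:38453890-38493142). Its CPM were 18.9, 21.0 and 19.7 in pLKO-GFP, 31.2, 34.2 and 32.8 in shAHR#2, and 26.3, 25.9 and 24.4 in shAHR#3. The groups did not overlap, and shAHR#3 again lay between the others. ACVR2B rose by 0.72 ± 0.07 on the log2 scale with shAHR#2 (edgeR adjusted p = 1.76e-11) and by 0.36 ± 0.07 with shAHR#3 (edgeR adjusted p = 3.93e-05). Its level in shAHR#3 was lower than in shAHR#2 by a log2 fold change of -0.36 ± 0.07 (edgeR adjusted p = 3.23e-05). The antisense RNA ACVR2B-AS1 had at most 16 reads in any library.

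ACVR2A, the other activin type II receptor (chr2:147844517-147930826, forward strand), did not rise. Its CPM were 12.2, 13.5 and 11.5 in pLKO-GFP, 11.7, 8.99 and 9.55 in shAHR#2, and 10.4, 10.6 and 12.1 in shAHR#3. All groups overlapped. Its log2 fold change was -0.29 ± 0.11 with shAHR#2 (edgeR adjusted p = 0.0164) and -0.17 with shAHR#3 (edgeR adjusted p = 0.166). The call for shAHR#2 was lost, at log2 fold changes of -0.22, -0.21 and -0.25, when pLKO-GFP replicate 2, shAHR#2 replicate 2 or shAHR#2 replicate 3 was left out. ORC4, a well expressed gene with up to 1004 reads, overlaps ACVR2A on the opposite strand, and the sharing of reads between them was not tested.

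Among the other type I receptors of the set, ACVR1B (ALK4), the activin receptor that acts on SMAD2 and SMAD3, was the gene that rose. It lies 44.8 kb downstream of the ACVRL1 start on the same strand (chr12:51951699-51997078). The CPM of ACVR1B were 19.7, 18.6 and 18.2 in pLKO-GFP, 32.7, 25.6 and 32.8 in shAHR#2, and 25.7, 28.7 and 28.7 in shAHR#3. Both knockdown groups lay above the control and overlapped each other. Its log2 fold changes were 0.70 ± 0.08 with shAHR#2 (edgeR adjusted p = 1.41e-09) and 0.56 ± 0.08 with shAHR#3 (edgeR adjusted p = 1.96e-07). The direct difference of -0.14 ± 0.08 did not pass the test (edgeR adjusted p = 0.157), but did without shAHR#2 replicate 2, at -0.25.

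TGFBR1 (ALK5), the type I partner of TGFBR2, moved little and in the other direction (chr9:99104038-99154192, forward strand). Its CPM were 145, 159 and 149 in pLKO-GFP, 140, 145 and 138 in shAHR#2, and 140, 138 and 135 in shAHR#3. The shAHR#3 libraries lay below the control, and shAHR#2 met it at 145 CPM. Its log2 fold changes were -0.10 ± 0.03 (edgeR adjusted p = 0.0137) and -0.13 ± 0.03 (edgeR adjusted p = 0.00143). The first call was lost without pLKO-GFP replicate 2, where the log2 fold change was -0.06, and without shAHR#2 replicate 1 or 3, where it was -0.09 and -0.08.

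The BMP type I receptors BMPR1A and ACVR1 also stood lower. BMPR1A (ALK3, chr10:86756596-86932825, forward strand) binds BMP2 and BMP4. Its CPM were 62.7, 68.9 and 64.7 in pLKO-GFP, 56.0, 57.4 and 54.0 in shAHR#2, and 62.0, 59.1 and 58.8 in shAHR#3, with no overlap between groups. Its log2 fold changes were -0.23 ± 0.05 (edgeR adjusted p = 4.68e-05) and -0.13 ± 0.05 (edgeR adjusted p = 0.0161). The call for shAHR#3 was lost without pLKO-GFP replicate 2, at -0.09, or without shAHR#3 replicate 2, at -0.12.

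ACVR1 (ALK2, chr2:157736251-157876330, reverse strand) is a receptor for BMP6 and BMP7. The CPM of ACVR1 were 31.4, 32.5 and 33.9 in pLKO-GFP, 29.3, 24.9 and 25.6 in shAHR#2, and 27.4, 30.9 and 29.8 in shAHR#3. Both knockdown groups lay below the control. ACVR1 fell with shAHR#2, at a log2 fold change of -0.29 ± 0.07 (edgeR adjusted p = 3.89e-04). With shAHR#3 its log2 fold change of -0.15 ± 0.07 was at the threshold (edgeR adjusted p = 0.0502) and passed it under 7 of 14 alternatives.

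**Figure D2:**
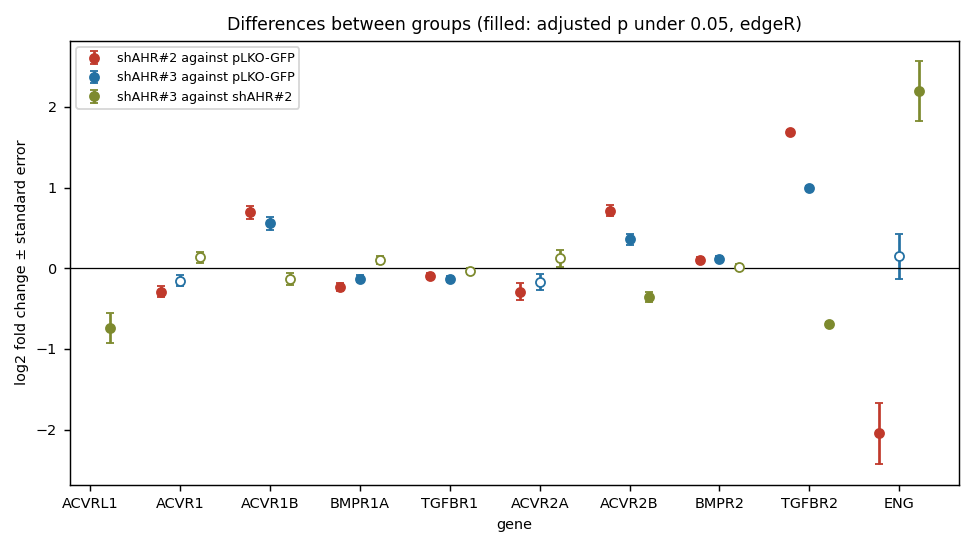
Log2 fold change ± standard error of each receptor gene (vertical axis) from the edgeR fit for shAHR#2 against pLKO-GFP, shAHR#3 against pLKO-GFP and shAHR#3 against shAHR#2; filled points passed an adjusted p of 0.05, and ACVRL1 is plotted only for the last comparison because it was chosen on its difference from the control. TGFBR2, ACVR2B and ACVR1B lie above 0 with both constructs, and ENG is near -2.05 with shAHR#2 and near 0.15 with shAHR#3.

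Apart from ACVRL1, 4 of the 9 genes were called higher and 5 lower with shAHR#2, and 4 were called higher, 2 lower and 3 not called with shAHR#3, beside the 65.8% and 54.4% of all genes called. Their median log2 fold changes were -0.10 and 0.12, beside medians of all genes of -0.0032 and -6.88e-05. The genes called higher were TGFBR2, ACVR2B, ACVR1B and BMPR2 with either construct. Between the constructs, 1 of all 10 genes was higher in shAHR#3 (ENG), 3 were lower (ACVRL1, TGFBR2 and ACVR2B) and 6 were not called, beside 42.3% of all genes called. These shares were not tested, and nothing particular to the receptors is read from them.

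Per length, TGFBR2 was the most abundant receptor transcript of the set in every group. In pLKO-GFP the mean RPKM fell from TGFBR2 (39.1 ± 0.576) through TGFBR1 (18.9 ± 0.885), BMPR2 (11.8 ± 0.359), BMPR1A (6.49 ± 0.313), ACVR1B (3.33 ± 0.133), ACVR1 (3.31 ± 0.129), ACVR2A (1.92 ± 0.156) and ACVR2B (1.27 ± 0.0659) to ENG (0.537 ± 0.156) and ACVRL1 (0). Neighbours in this order did not overlap between libraries, except ACVR1B and ACVR1. In shAHR#2 ACVR1B drew level with BMPR1A, at 5.37 ± 0.727 and 5.54 ± 0.172 RPKM, and their libraries overlapped. There ACVR2B passed ACVR2A, and ACVRL1 passed ENG, with no overlap. In shAHR#3 the pairs ACVR2A and ACVR2B, and ENG and ACVRL1, overlapped.

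The transcript levels of the TGF-beta receptor pair became less even, while receptor protein was not measured. The ratio of TGFBR2 to TGFBR1 RPKM was 2.07 ± 0.0794 in pLKO-GFP, 7.14 ± 0.148 in shAHR#2 and 4.51 ± 0.135 in shAHR#3 (SD, n = 3). The summed RPKM of the 10 genes was 86.6 ± 2.29 in pLKO-GFP, 174 ± 0.743 in shAHR#2 and 126 ± 0.974 in shAHR#3. TGFBR2 made up 45.1 ± 0.721% of that sum in pLKO-GFP, 72.2 ± 0.471% in shAHR#2 and 61.7 ± 0.517% in shAHR#3. Neither ratio nor share overlapped between groups.

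AHR binds DNA together with ARNT at response elements whose core reads GCGTG, so the promoter windows of the receptors were searched for these letters on both strands, where the opposite strand reads CACGC. RefSeq promoter windows of 300 bases (250 before and 50 after a start, GRCh38.p14) were at hand for 9 of the 10 genes, with none for ACVRL1. The core was in 10 of their 20 windows and in at least 1 window of 6 genes, and in 36.5% of all 35116 windows of that length. It was in no window of BMPR2, ENG or ACVR1, in the only window of ACVR2A and of BMPR1A, and in 5 of the 8 windows of TGFBR1. TGFBR1 thus weighs heavily in the count of windows. No share of all genes with the core was worked out to set beside the 6 genes. The sites of the receptors that rose with both constructs and hold the core are shown here, on the strand of the gene and with the core in capitals: the TGFBR2 site (chr3:30606622-30606646, core from position 32 after the start), both ACVR2B sites (chr3:38453707-38453731 and chr3:38453796-38453820, cores from positions -173 and -84, on the opposite strand) and the ACVR1B site (chr12:51951481-51951505, core from position -208).
TGFBR2: acacccccgcGCGTGcacccgctcg
ACVR2B, position -173: caagttggtgCACGCgcgtcctccc
ACVR2B, position -84: gggcgcggacCACGCggccggaggg
ACVR1B: gttggccgagGCGTGagccccgccc
A match is a description of the letters, and binding of AHR was not measured in these data.

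The other receptors of the family were few. BMPR1B (ALK6), a BMP type I receptor, had 148, 187 and 175 reads in pLKO-GFP, 194, 191 and 214 in shAHR#2, and 322, 327 and 294 in shAHR#3. Every knockdown library was above every control library. BMPR1B rose by 0.44 ± 0.11 on the log2 scale with shAHR#2 (edgeR adjusted p = 5.19e-04) and by 0.84 ± 0.10 with shAHR#3 (edgeR adjusted p = 4.34e-09), and was higher in shAHR#3 by 0.40 ± 0.10 (edgeR adjusted p = 8.52e-04). ACVR1C (ALK7), the type I receptor for nodal and some GDFs, had 4 to 15 reads per library. Its log2 fold change was 0.90 with shAHR#2 (edgeR adjusted p = 0.109) and 1.09 with shAHR#3 (edgeR adjusted p = 0.0462), a call that was lost under 8 of 14 alternatives. AMHR2, the anti-Müllerian hormone receptor, had 1 read in shAHR#2 replicate 1 and none elsewhere.

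Of 12 co-receptors and decoys, 6 were tested. The calls for shAHR#2 were 4 higher and 1 lower, and those for shAHR#3 were 3 higher and 2 lower, beside 65.8% and 54.4% of all genes called. TGFBR3 (betaglycan) presents TGF-beta to TGFBR2 and inhibin to activin receptors. The pLKO-GFP libraries had 38.0, 40.7 and 40.7 CPM of TGFBR3, the shAHR#2 libraries 66.0, 69.4 and 66.7, and the shAHR#3 libraries 90.6, 87.3 and 88.1. The groups did not overlap and shAHR#3 was the highest, the reverse of the order of TGFBR2 between the constructs. TGFBR3 rose by 0.76 ± 0.05 and 1.15 ± 0.04 on the log2 scale (edgeR adjusted p = 5.83e-17 and 8.05e-23), and was higher in shAHR#3 than in shAHR#2 by 0.40 ± 0.04 (edgeR adjusted p = 4.42e-10). NRP2, a neuropilin that can bind TGF-beta, rose by 0.56 and 0.66.

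Of 33 ligand genes, 15 were tested. With shAHR#2, 6 were called higher and 6 lower (median log2 fold change -0.02), and with shAHR#3, 10 were called higher and 2 lower (median 0.49), beside 65.8% and 54.4% of all genes called and all-gene medians of -0.0032 and -6.88e-05. Between the constructs 9 were higher in shAHR#3 and 2 lower (median 0.70), beside 42.3% of all genes called and an all-gene median of 0.0068. TGFB1 rose by 0.43 and 0.49, and TGFB3 by 0.89 and 1.27, while BMP8B rose by 1.17 and 0.74 on the log2 scale. INHBA, which encodes the subunit of activin A, had 246, 361 and 269 reads in pLKO-GFP, 2, 5 and 6 in shAHR#2, and 49, 58 and 45 in shAHR#3. No groups overlapped. INHBA fell by 5.83 on the log2 scale with shAHR#2 and by 2.57 with shAHR#3 (edgeR adjusted p = 2.23e-22 and 1.33e-17). At 2 to 6 reads in shAHR#2 the size of its fall there was loose. Over the alternatives the log2 fold change with shAHR#2 ranged from -6.17 to -5.41.

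Some ligands were singled out after their values were seen. GDF2 had no read in any library, and BMP10 at most 1, so transcripts of these ligands of ACVRL1 were not detectable at this depth. Ligand protein was not measured. TGFB2 stood at 214 ± 6.49 CPM in pLKO-GFP, 91.5 ± 2.89 in shAHR#2 and 211 ± 3.90 in shAHR#3 (SD, n = 3). BMP4 stood at 235 ± 3.68, 158 ± 9.24 and 288 ± 9.27 CPM. Each was thus lowest in shAHR#2, by log2 fold changes from the control of -1.22 and -0.57 (edgeR adjusted p = 1.29e-27 and 2.01e-17).

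Of 23 genes for latency proteins and extracellular antagonists, 14 were tested. The shAHR#2 cells had 8 of them called higher and 3 called lower, and the shAHR#3 cells 8 and 2, where 65.8% and 54.4% of all genes were called. LTBP1, a latent TGF-beta binding protein that anchors the latent ligand in the matrix, rose by 0.88 with shAHR#2 and 0.42 with shAHR#3 on the log2 scale. LTBP2, a matrix protein of the same family, rose by 0.73 and 0.39, and NBL1, a secreted BMP antagonist, by 0.65 and 0.54. NOG (noggin), which binds BMP2 and BMP4, fell with both, at log2 fold changes of -0.54 and -0.39.

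All 25 genes for SMADs and intracellular regulators were tested. With shAHR#2, 11 were called higher and 10 lower, beside 32.6% and 33.2% of all genes, and with shAHR#3, 10 and 9, beside 26.9% and 27.5%. SMAD6, which inhibits BMP type I receptor signalling and is itself a BMP target, stood at 5.66 ± 0.743 CPM in pLKO-GFP, 12.2 ± 1.05 in shAHR#2 and 21.0 ± 1.72 in shAHR#3 (SD, n = 3). Its groups did not overlap. SMAD6 rose by 1.10 ± 0.11 and 1.89 ± 0.10 on the log2 scale (edgeR adjusted p = 1.04e-10 and 4.39e-18), and was higher in shAHR#3 than in shAHR#2 by 0.79 ± 0.09 (edgeR adjusted p = 5.14e-09). SMAD3, an effector of TGF-beta and activin, rose by 0.49 and 0.41, and the repressor TGIF1 by 0.71 and 0.42. PMEPA1, which restrains TGF-beta signalling and is one of its targets, had log2 fold changes of -0.97 and -1.16, and NEDD4L, a ubiquitin ligase, of -0.60 and -0.83. TGIF2, another repressor of SMAD-driven transcription, had log2 fold changes of -0.93 and -0.25, and all 3 fell with both constructs.

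**Figure D3:**
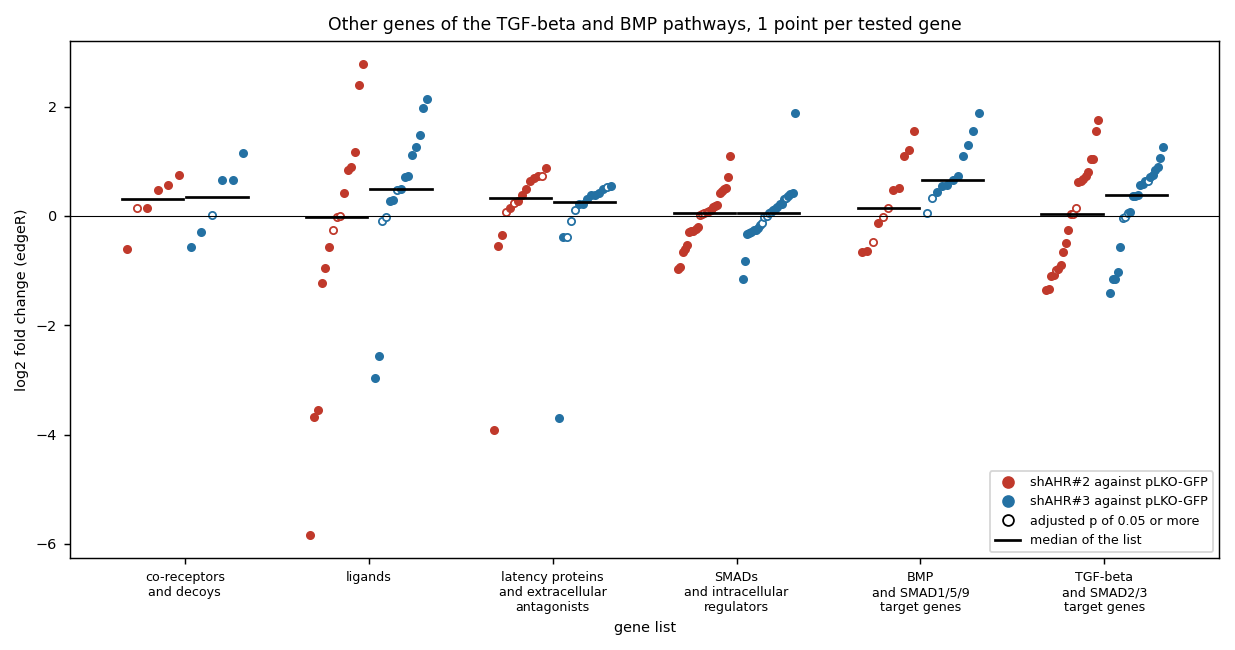
Log2 fold change from pLKO-GFP (vertical axis) of the tested genes in 6 lists of the pathways for shAHR#2 and shAHR#3, sorted within each list; 1 point is 1 gene, open points did not pass an adjusted p of 0.05, and bars are list medians. The median of the BMP target genes is 0.14 with shAHR#2 and 0.66 with shAHR#3, and INHBA is the lowest ligand with shAHR#2, at -5.83.

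Of 15 BMP and SMAD1/5/9 target genes, 11 were tested, and most of these were called higher with shAHR#3. With shAHR#2, 5 were called higher and 3 lower (median log2 fold change 0.14), and with shAHR#3, 9 were called higher and 0 lower (median 0.66), beside all-gene shares of 32.6% and 33.2% for shAHR#2 and of 26.9% and 27.5% for shAHR#3. Between the constructs 9 were called higher in shAHR#3 and 0 lower (median 0.62), beside 21.9% of all genes called higher and a median of all genes of 0.0068. The list was set with these data known, so its counts are a description. The inhibitors of bHLH transcription factors ID3 and ID2 rose with both constructs, ID3 by 1.21 ± 0.10 and 1.55 ± 0.10 and ID2 by 0.48 ± 0.16 and 1.10 ± 0.14 on the log2 scale. ID3 and ID2 were higher in shAHR#3 than in shAHR#2, by 0.34 ± 0.08 and 0.62 ± 0.14 (edgeR adjusted p = 0.00104 and 2.87e-04). ACVRL1 and TGFBR2 were lower in shAHR#3 than in shAHR#2, while TGFBR3, BMPR1B, SMAD6, ID2 and ID3 were higher.

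Of 24 TGF-beta and SMAD2/3 target genes, 22 were tested, with 9 called higher and 9 lower with shAHR#2 (median log2 fold change 0.04), and 13 higher and 5 lower with shAHR#3 (median 0.38). The corresponding shares of all genes were 32.6% and 33.2% for shAHR#2, and 26.9% and 27.5% for shAHR#3. SPHK1, a sphingosine kinase, rose by 1.76 and 1.26, FN1, which encodes fibronectin, by 1.56 and 1.07, and the transcription factor BHLHE40 by 1.05 and 0.90 on the log2 scale. IL11, a cytokine of the IL-6 family, had log2 fold changes of -1.35 and -1.02, and SNAI2, a transcription factor of epithelial-mesenchymal transition, of -1.09 and -1.15. Both fell with both constructs, as did PMEPA1.

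Since ACVRL1 and ENG are best known from endothelium, markers of other cells were counted. Of 16 endothelial markers, TIE1, EMCN, SOX17, TEK, PLVAP, ERG and CLDN5 had at most 3 reads in every library. The summed level of all 16 was 94.1 to 104 CPM in pLKO-GFP, 193 to 210 in shAHR#2 and 149 to 163 in shAHR#3. Of the 6 tested, 3 were called higher and 1 lower with shAHR#2, and 4 higher and 2 lower with shAHR#3, beside 65.8% and 54.4% of all genes called. PECAM1 rose by 2.22 and 2.35 on the log2 scale, while KDR, the main VEGF receptor, fell, at log2 fold changes of -2.75 and -3.62. PECAM1 and KDR were picked outside the rule for naming genes, with their values known. The other tested markers, and the genes behind the rise of the sum, are not named here.

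VWF, picked in the same way, had no read in the control, 4 to 7 in shAHR#2 and 4 to 9 in shAHR#3, counts near the floor. The 8 leukocyte markers summed to 3.90 to 5.42 CPM in pLKO-GFP, 5.63 to 7.29 in shAHR#2 and 6.40 to 6.69 in shAHR#3, with CD3E, CD163 and TYROBP among those with at most 3 reads in every library. The 8 mammary epithelial markers summed to 677 to 713 CPM in pLKO-GFP, 755 to 783 in shAHR#2 and 859 to 913 in shAHR#3, and of these the basal keratins KRT5, KRT14 and KRT17 had at most 3 reads in every library. The part of these markers in the ACVRL1 and ENG values was not tested.

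Patterns like that of ACVRL1 over the 9 libraries were ranked by the root mean square difference of log2 CPM, each gene centred on its mean. The most similar of 14273 other tested genes was SLC30A8, a zinc transporter best known from pancreatic islets, at 0.225, followed by PIK3CG (0.306), CD96 (0.354), LAMA4 (0.374) and CCN4 (0.392). The median over all genes was 2.42, and 32 genes lay within 1. SLC30A8 had 1, 0 and 0 reads in pLKO-GFP, 95, 83 and 86 in shAHR#2, and 75, 78 and 82 in shAHR#3. CCN4 had 0, 0 and 1 reads in pLKO-GFP, 45, 48 and 46 in shAHR#2, and 49, 44 and 48 in shAHR#3. These genes were found by their pattern, so their values are a description.

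LAMA4, a laminin chain, and CD96, a membrane protein of the immunoglobulin family, had the same order of groups at higher levels. Unlike ACVRL1, both had reads in every control library. LAMA4 stood at 5.96 ± 0.276 CPM in pLKO-GFP, 141 ± 1.14 in shAHR#2 and 107 ± 3.80 in shAHR#3 (SD, n = 3). CD96 stood at 5.22 ± 0.464, 139 ± 1.90 and 83.7 ± 2.68 CPM. PIK3CG, a catalytic subunit of PI3 kinase, stood at 0.723 ± 0.203, 39.1 ± 2.65 and 16.0 ± 1.11 CPM.

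**Figure D4:**
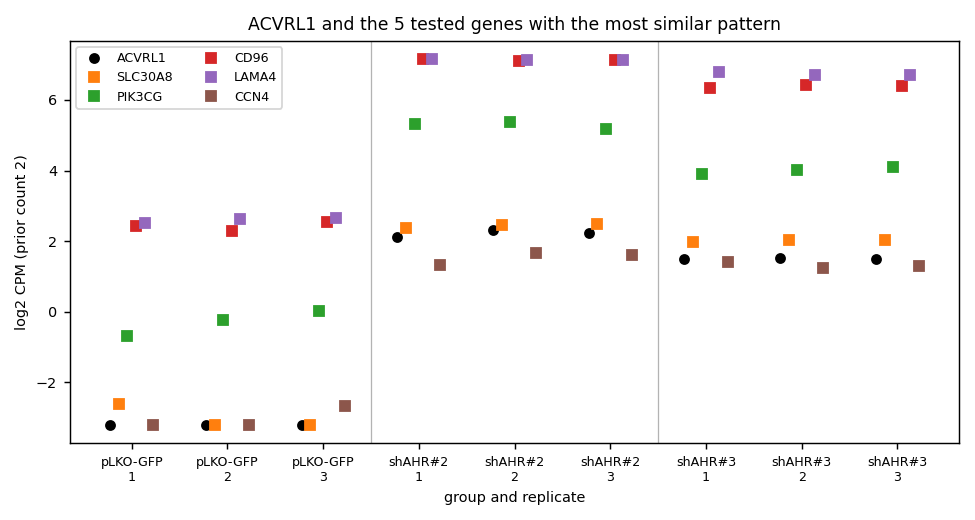
Log2 CPM with a prior count of 2 (vertical axis) of ACVRL1 (circles) and of the 5 genes closest to its pattern (squares) in each of the 9 libraries (horizontal axis, by group and replicate, with symbols set apart for legibility). All 6 genes are lowest in the 3 control libraries, and ACVRL1, SLC30A8 and CCN4 have at most 1 read there.

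Around ACVRL1 on chromosome 12, 8 of the genes that start within 500 kb were tested besides ACVRL1 itself. For shAHR#2, 4 of them were called higher and 4 lower. For shAHR#3, 4 were called higher, 1 was called lower and 3 were not called. The shares of all genes called were 65.8% and 54.4%. NR4A1, a nuclear receptor with 6 to 36 reads per library, rose by 1.29 and 1.39 on the log2 scale. ATG101, an autophagy gene, rose by 0.18 and 0.27, a call that was lost for shAHR#2 without pLKO-GFP replicate 1, at 0.13, or without shAHR#2 replicate 2, at 0.14. Of the keratins, KRT7 rose by 0.35 and 0.68, while KRT80 had log2 fold changes of -0.10 and 0.02 and KRT86 of -0.75 and 0.33, of which those with shAHR#2 passed the test and those with shAHR#3 did not. KRT80 lost its call without shAHR#2 replicate 1, at -0.08, and KRT86 gained one with shAHR#3 under 3 of 14 alternatives. KRT81 and KRT87P were added after their values were seen: KRT81 fell with both constructs, at log2 fold changes of -1.55 and -0.51 (edgeR adjusted p = 1.50e-29 and 1.26e-15), and KRT87P had -0.85 and -0.34, called with shAHR#2 only (edgeR adjusted p = 0.0329 and 0.377). KRT81, KRT86 and KRT87P are close relatives, and how the counting divided reads that match more than 1 of them is not given in the sources used here.

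The median change also differed between chromosomes. The median log2 fold change of the 794 tested genes of chromosome 12, which carries ACVRL1 and ACVR1B, was 0.22 with shAHR#2 and 0.17 with shAHR#3. It was 0.13 and 0.09 on chromosome 3 (TGFBR2 and ACVR2B), -0.07 and -0.10 on chromosome 2 (ACVR1, ACVR2A and BMPR2), 0.04 and 0.02 on chromosome 9 (TGFBR1 and ENG) and -0.32 and -0.15 on chromosome 10 (BMPR1A). The log2 fold changes of TGFBR2 (1.69 and 0.99) lay far above the medians of chromosome 3, while those of BMPR1A (-0.23 and -0.13) were no lower than the medians of chromosome 10. The part of these shifts in the receptor values was not tested.

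**Figure D5:**
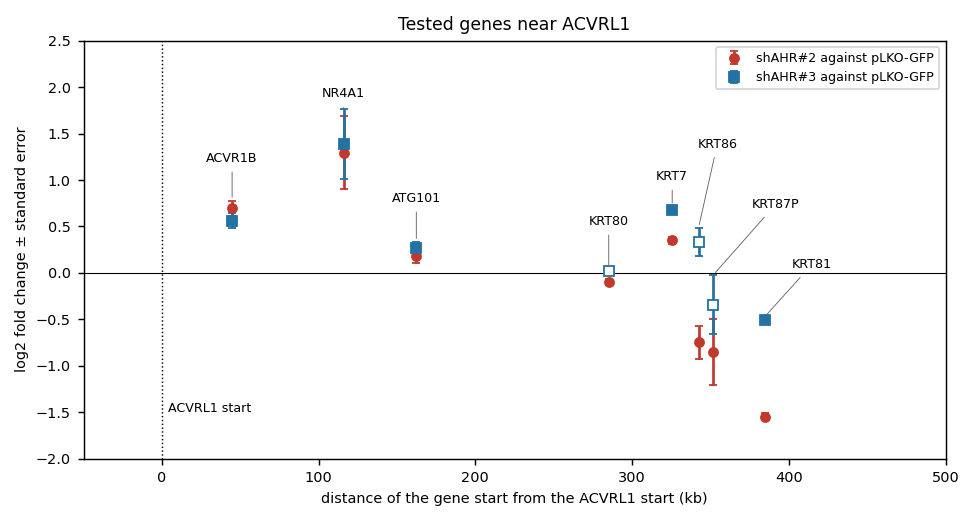
Log2 fold change ± standard error from pLKO-GFP (vertical axis) of the 8 other tested genes within 500 kb of the ACVRL1 start, by distance of their starts in kb (horizontal axis), for shAHR#2 and shAHR#3; open points did not pass an adjusted p of 0.05. ACVR1B, NR4A1, ATG101 and KRT7 lie above 0 with both constructs, and all tested genes lie on 1 side of ACVRL1.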

How the data were processed

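Libraries, made with the TruSeq Stranded mRNA kit (500 ng RNA each), were read single-end on a NextSeq 500. The authors aligned the reads with STAR to GRCh38.p13 and deposited raw counts per gene from featureCounts (Subread), with FastQC also named in the submitters' processing notes; versions, annotation release and strand setting are not given in the sources used here. From these counts, edgeR 4.0.16 in R 4.3.3 (limma 3.58.1) kept genes by filterByExpr (minimum count 10, minimum total 15), scaled libraries by TMM and fitted 1 quasi-likelihood model with a mean per group to all 9 libraries, with no block (common biological coefficient of variation 2.96%). Genes were called at a Benjamini-Hochberg adjusted p under 0.05. The fit was also run on simulated counts in which few genes changed, in a single group, at the same dispersion for every gene. Since most genes were called against the control in the data, that run cannot say how the fit does there. Pathway lists and members were chosen with earlier results of these data known, and 158 of 159 list symbols matched the table. RPKM used merged exon lengths from GENCODE 44, and coordinates are GENCODE's on GRCh38. Genes named besides the members were AHR, the other receptors of the family, the 5 most like ACVRL1 and up to 6 tested neighbours within 500 kb. From each list, up to 3 genes with the largest mean rise and up to 3 with the largest mean fall were also named. These had an average log2 CPM of 1 or more and were called the same way with both constructs, so the rule fixed that agreement. Some other genes, such as PECAM1, KDR and VWF, were named outside this rule. Alternatives were DESeq2 1.42.0, its size factors in edgeR, no filter, fitting only the groups compared, a replicate block and leaving out each library. Replicate libraries differed by more than sampling noise (their chi-square statistics divided by degrees of freedom were 1.76 to 4.24). Standard errors were worked out as the size of the log2 fold change divided by the square root of its F statistic. They are approximate at low counts. SDs and standard errors reflect the spread between these libraries, which may be technical. The floor of the ACVRL1 bounds covers counting error in the control libraries only.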

Additional observations from a re-analysis of the deposited data

Results flagged for a closer look

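The genes given here drew a closer look because their levels in shAHR#3 and shAHR#2 differed in the direct edgeR comparison (adjusted p under 0.05): 14 of the 31 were higher in shAHR#3 and 17 lower. They came from the 10 members and the 37 other genes named by rule. Of all tested genes, 42.3% were called in this comparison (21.9% higher, 20.4% lower). Many of the 37 were picked for large changes from the control, so these counts are a description. All values are log2 differences, shAHR#3 minus shAHR#2, and no explanation was tested. Among the receptors, ACVRL1 (-0.74), TGFBR2 (-0.69) and ACVR2B (-0.36) were lower in shAHR#3, and ENG (2.20) and BMPR1B (0.40) were higher. Of the co-receptors, ligands and matrix proteins, INHBA (3.26), TGFBR3 (0.40) and TGFB3 (0.38, a call lost under 3 of 14 alternatives) were higher in shAHR#3, while LTBP1 (-0.45), BMP8B (-0.43) and LTBP2 (-0.34) were lower. Of the regulators and targets, SMAD6 (0.79), TGIF2 (0.68), ID2 (0.62), ID3 (0.34) and IL11 (0.33) were higher, while SPHK1 (-0.50), FN1 (-0.49), TGIF1 (-0.29), NEDD4L (-0.23), PMEPA1 (-0.18), BHLHE40 (-0.15) and SMAD3 (-0.08) were lower. The neighbours KRT86 (1.08), KRT7 (0.33) and KRT80 (0.11) were higher in shAHR#3. PIK3CG (-1.29), CD96 (-0.74), SLC30A8 (-0.42, a call lost under 8 of 14 alternatives) and LAMA4 (-0.41) were lower, but were found by their pattern over the same libraries, so these values are a description. AHR itself was 0.19 higher in shAHR#3, a call that was lost without shAHR#3 replicate 2.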

How the results depend on the processing

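Over 14 alternatives, genes called numbered 8726 to 9485 with shAHR#2, 7005 to 7844 with shAHR#3 and 5342 to 6107 between the constructs, the lowest under DESeq2. Of 136 gene values, 116 kept their direction and their side of the threshold under all alternatives, 16 lost or gained the call and 4 changed sign. None of those 4 was called. When each library was left out in turn, the log2 fold change of ENG with shAHR#3 ranged from -0.053 (pLKO-GFP replicate 1 left out; below 0 also for shAHR#3 replicate 1) to 0.41. Between the constructs, NR4A1 ranged from -0.25 (shAHR#3 replicate 3 left out; below 0 also for shAHR#2 replicate 1) to 0.32, ACVR1C from -0.073 (shAHR#2 replicate 2 left out) to 0.36, and BMPR2 from -0.011 (shAHR#2 replicate 3 left out; below 0 also for shAHR#3 replicate 2) to 0.062. The other receptors called with shAHR#3 numbered 1 in place of 2 under DESeq2, with no filter and with a replicate block, because ACVR1C lost its call; leaving out libraries gave 1 to 2 with either construct, and 17.0 to 18.1 for the lower bound of the ACVRL1 fold with shAHR#3. Member receptors called numbered 7 to 9, 5 to 7 and 4 to 5. The replicate numbers were not taken as pairs, since nothing in the labels ties them. Deviations of same-numbered libraries correlated at 0.0031 to 0.0578, and those of differently numbered libraries at -0.0680 to 0.0234. A library matched its own number best in 15 of 18 cases, a hint of pairing in the data that was not tested. These cases are not independent, since each correlation was used in both directions and deviations were taken from the group mean. The replicate block gave 9406, 7844 and 6107 calls and, of the genes named, changed only the call of ACVR1C with shAHR#3. Depth limits ENG, ACVR1C, NR4A1, AMHR2, GDF2 and BMP10, among others.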
